A study of Mus musculus with 14 samples.

Results

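Ncam1, Ncam2, L1cam, Nrcam, Chl1 and Nfasc were followed in the olfactory epithelium of 14 mouse pups. They are the 6 genes of the NCAM and L1 families of neuronal adhesion molecules (2 NCAM and 4 L1 genes), were chosen by symbol, and were all present among the 51211 gene symbols of both expression tables. Each library came from the whole olfactory epithelium of 1 pup at postnatal day 5 (P5), in 2 experiments on different library kits. In the Kir2.1 experiment, 3 control pups carried 1 OMP-IRES-tTA allele, and 3 Kir2.1 pups carried it with tetO-Kir2.1-IRES-tauLacZ, so that the Omp locus drove the potassium channel Kir2.1 through tTA in mature olfactory sensory neurons (OSNs), which silences them. C57BL/6 is given as strain background throughout the sample records, which also give the pups of the first experiment a name that the study's methods keep for doxycycline-fed adults. They are called Kir2.1 mice here, since they were taken at P5. In the PEA experiment, 4 wild-type pups were exposed to the odor 2-phenylethylamine (PEA) from P0 to P5 and 4 were not, and the methods name CD-1 pups for it.

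Members of both families sit on axons and growth cones and carry immunoglobulin-like and fibronectin type III domains outside the cell. Most bind their own kind or other adhesion molecules on neighbouring membranes, and OSN axons use such contacts to bundle on the way to the olfactory bulb. NCAM1 is found on axons of all OSNs and can be modified with polysialic acid, a long sugar chain that loosens adhesion. NCAM2, also called OCAM or RNCAM, marks axons from the ventral zone of the epithelium, while the enzyme NQO1 marks dorsal OSNs. The L1 family (L1CAM, NrCAM, CHL1 and neurofascin) differs from NCAM in a short intracellular tail motif that binds ankyrin and so the spectrin cytoskeleton.

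The codons of that motif are shown because they separate the 2 families in sequence. In the GENCODE vM21 transcripts (GRCm38), codons for phenylalanine, isoleucine, glycine, any residue and tyrosine were searched in all 3 forward frames. They were found in 4 of 6 coding transcripts of L1cam, 4 of 7 of Nrcam, 3 of 5 of Chl1 and 5 of 6 of Nfasc. None of the 6 coding transcripts of Ncam1 or the 2 of Ncam2 had them. Capitals mark the 15 bases of the motif, with 6 coding bases on either side in lower case, 5′ to 3′ on the gene's strand:
L1cam: ggctctTTCATCGGCCAGTACagtggc
Nrcam: ggctccTTTATTGGCCAATACagtggt
Chl1: ggatcgTTTATTGGCGCATACactgga
Nfasc: ggctccTTTATTGGCCAGTACactgtc
Each stretch lay in the last exon of the transcript with the longest coding sequence, exon 29 of L1cam, 31 of Nrcam, 27 of Chl1 and 32 of Nfasc. The positions were chrX:73855116-73855142 on the minus strand for L1cam, chr12:44598480-44598506 on the plus strand for Nrcam, chr6:103729243-103729269 on the plus strand for Chl1 and chr1:132570501-132570527 on the minus strand for Nfasc. Nrcam and Nfasc shared 14 of the 15 motif bases, and L1cam and Chl1 shared 10. The fourth codon was CAG in L1cam and Nfasc, CAA in Nrcam and GCA in Chl1.

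The genes lie on 6 chromosomes. In GENCODE vM21, Ncam1 (ENSMUSG00000039542) spans chr9:49502136-49798925 on the minus strand, Ncam2 (ENSMUSG00000022762) chr16:81200697-81626828 on the plus strand, and L1cam (ENSMUSG00000031391) chrX:73853778-73896105 on the minus strand. Nrcam (ENSMUSG00000020598) spans chr12:44328885-44601964 on the plus strand, Chl1 (ENSMUSG00000030077) chr6:103510586-103750211 on the plus strand, and Nfasc (ENSMUSG00000026442) chr1:132564690-132741797 on the minus strand. All values below are per gene, over every transcript, so that isoforms such as the glycophosphatidylinositol-anchored forms were not separated. Polysialic acid is added to the protein and is not seen in RNA values. Arhgap4 has exons overlapping those of L1cam on the same strand and had 105 to 239 normalized counts per mouse in the Kir2.1 experiment and 31.0 to 85.3 in the PEA experiment, so the split of reads between them is uncertain. Gm11149 lies antisense to Ncam1 with overlapping exons and reached at most 22.8.

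The values are gene-level estimates that the authors scaled between mice, called normalized counts here. In each mouse one low value recurred in 269 to 1168 genes, and taken as the worth of 1 read it gave an estimated depth of 32513158 to 35397330 reads in the Kir2.1 experiment and 9764663 to 15074997 in the PEA experiment. Kcnj2, the gene of Kir2.1, was at 986 to 1274 in controls and at 17926 to 24193 with Kir2.1, as labelled. Some libraries stood apart in vomeronasal receptor genes (Vmn1r and Vmn2r), whose home is the neighbouring vomeronasal organ. Their mean log2 value was 6.06 in Kir2.1 experiment control mouse 1 and 2.35 to 2.45 in the other 5 mice, and in the PEA experiment it was 5.77, 4.68, 3.91 and 1.38 in the control mice and 5.33, 1.66, 1.38 and 1.38 in the exposed mice. Defining OSN markers were high throughout, with Omp at 21062 to 36226 and 6087 to 10082 normalized counts in the 2 experiments. Markers of mesenchyme were also present (8 genes with summed values of 69349 to 196389 in the Kir2.1 experiment and 26440 to 42135 in the PEA experiment). Of 6 muscle genes, 3 passed the filter in the Kir2.1 experiment, with summed values of 108 to 135 in controls against 137 to 154 with Kir2.1, and 1 passed in the PEA experiment, at 19.7 to 26.4 in controls against 15.1 to 22.3 with PEA. The part of muscle RNA in the results was not tested.

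Ncam1 was the most abundant member in all 4 groups. Divided by the length of its longest coding transcript, it had 2853 ± 361 normalized counts per kilobase in the control mice of the Kir2.1 experiment (SD, n = 3). L1cam followed with 579 ± 28.7, Ncam2 with 352 ± 34.5, Nfasc with 199.7 ± 222, Nrcam with 116 ± 7.25 and Chl1 with 14.9 ± 0.47 per kilobase. Neighbours in this order did not overlap between mice except Ncam2 with Nfasc and Nfasc with Nrcam. Chl1, which guides axons and is close to L1CAM in structure, was thus the least abundant member in these libraries.

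The order differed in the libraries of the PEA experiment, made with another kit. There the control mice had 666 ± 201 normalized counts per kilobase for Ncam1 (SD, n = 4), 236 ± 51.9 for Ncam2, 122 ± 8.84 for Nrcam, 80.7 ± 28.8 for L1cam, 33.0 ± 15.8 for Chl1 and 25.4 ± 9.99 for Nfasc. L1cam overlapped with Chl1 and Chl1 with Nfasc among these mice. The kits differed in RNA selection, read length and strand, and the experiments were normalized apart, so kit and cohort cannot be told apart and no test was made between them. With exon-union lengths, the order was the same in both control groups, while Nfasc and Nrcam in the Kir2.1 mice and L1cam and Nrcam in the exposed mice changed places.

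**Figure D1:**
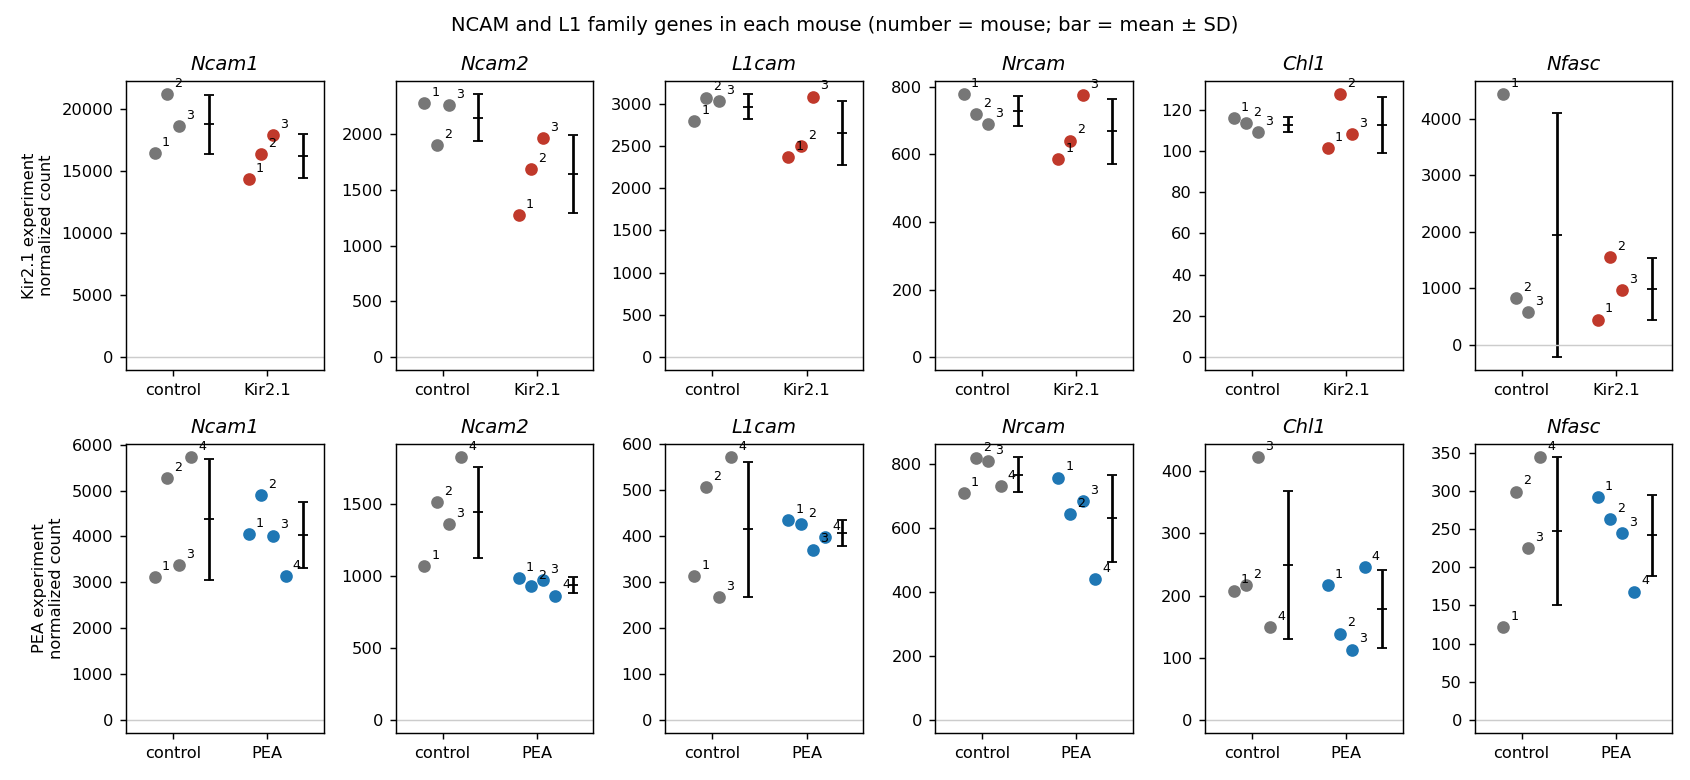
Normalized counts of the 6 genes in each of 14 mice, with the Kir2.1 experiment in the top row and the PEA experiment below. Points are mice with their replicate numbers, and bars give the mean ± SD of a group. The 4 exposed mice had Ncam2 values of 862 to 983, all under the 4 control mice at 1065 to 1826, and Nfasc stood at 4441 in 1 control mouse of the Kir2.1 experiment.

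The first comparison asked whether silencing of OSNs by Kir2.1 was accompanied by other levels of these adhesion genes. No member passed the test in the Kir2.1 mice, against 70 of 19807 genes tested (0.353%). The fitted fold changes of all 6 were below 0, though those of Chl1 and Nfasc were above 0 without control mouse 1, with a median of -0.19 on the log2 scale against 0.01 for all genes tested. Ncam2 alone had an unadjusted p under 0.05, a limit that 6.2% of all genes met in the lower direction. Over the alternatives the number of members under this limit was 0 to 2, and it was Ncam1 in place of Ncam2 without control mouse 1 (unadjusted p = 0.0468 and unadjusted p = 0.109) and with vomeronasal receptor genes as a covariate (unadjusted p = 0.0461 and unadjusted p = 0.112). That covariate was 6.06 in control mouse 1 and 2.35 to 2.45 in all other mice of this experiment. Fitting it is therefore nearly the same check as leaving out control mouse 1.

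Ncam2, the marker of ventral-zone axons, had 2276, 1904 and 2263 normalized counts in controls, against 1274, 1686 and 1964 with Kir2.1. All but 1 of the Kir2.1 mice were below every control mouse, so the groups overlapped by 1 mouse. The log2 fold change of (normalized count + 1), the scale of all fold changes here, was -0.41 (SE 0.16, 95% interval -0.79 to -0.03), and limma gave adjusted p = 0.412 over all genes tested. The exact two-sided permutation p was 0.2, where 3 against 3 mice cannot go below 0.1.

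Ncam1 had 16434, 21166 and 18583 normalized counts in controls, against 14355, 16314 and 17893 with Kir2.1. The highest Kir2.1 mouse lay above the lowest control mouse. Its log2 fold change was -0.21 (SE 0.12, 95% interval -0.49 to 0.07), with adjusted p = 0.603 by limma. It was -0.12 without either Kir2.1 mouse 1 or control mouse 2, and -0.30 without control mouse 1.

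Among the L1 family, L1cam itself, which supports axon growth and bundling, had 2800.5, 3075 and 3029 normalized counts in controls, against 2369.6, 2499.6 and 3085 with Kir2.1. The highest of the 6 values was that of a Kir2.1 mouse. Its fitted log2 change was -0.17 (SE 0.11, 95% interval -0.43 to 0.08, adjusted p = 0.651), and lay between -0.29 without Kir2.1 mouse 3 (unadjusted p = 0.0111) and -0.09 without Kir2.1 mouse 1. Nrcam, a partner of contactins and semaphorin receptors on axons, had 778, 719 and 689 in controls, against 587, 641 and 776 with Kir2.1. Its groups overlapped as well, with a log2 change of -0.13 (SE 0.12, 95% interval -0.42 to 0.15, adjusted p = 0.775). Without 1 of the mice it ranged from -0.25 (Kir2.1 mouse 3 left out) to -0.05 (Kir2.1 mouse 1 left out).

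Chl1 was the steadiest member by its control mice, at 116, 114 and 109 normalized counts against 101, 128 and 108 in the Kir2.1 mice. The Kir2.1 values lay on both sides of the control values. The fitted log2 change was -0.01 (SE 0.16), with a 95% interval of -0.38 to 0.36.

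Nfasc encodes neurofascin, which organizes the axon initial segment and nodes of Ranvier with ankyrin-G. It had 4441, 819 and 573 normalized counts in controls, against 445, 1548 and 969.5 with Kir2.1. Its pooled SD within groups was 1.29 on the log2 scale, larger than that of 97.3% of the genes tested, while the other members lay between percentiles 32.1 and 62.6. The fit gave a log2 fold change of -0.55 with a wide interval of -2.4 to 1.3 (SE 0.78, adjusted p = 0.87). Control mouse 1, which had the value of 4441, was also the library with the high vomeronasal receptor genes. Without it the log2 fold change of Nfasc was 0.35, in the other direction.

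**Figure D2:**
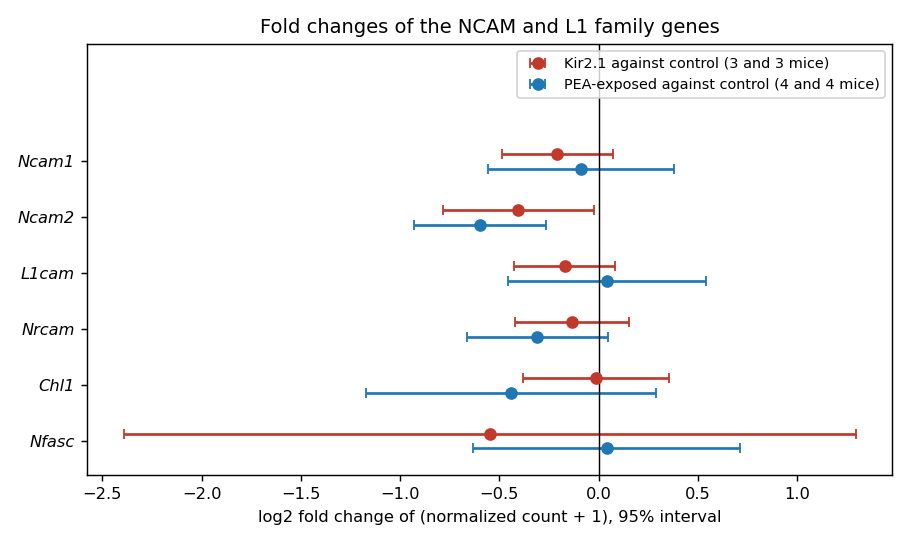
Log2 fold changes of the 6 genes with 95% intervals from limma, in red for Kir2.1 against control (3 and 3 mice) and in blue for PEA-exposed against control (4 and 4 mice). Ncam2 is the member whose interval lies below 0 in both comparisons (-0.79 to -0.03 and -0.93 to -0.27), and Nfasc has the widest interval in the Kir2.1 experiment.

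In the same libraries, 12 of 12 markers of mature OSNs had an unadjusted p under 0.05 on the lower side with Kir2.1, with a median log2 fold change of -0.41, and 2 of them (Omp and Slc17a6) passed the test. The 10 markers of immature OSNs had a median of -0.01 with none at that limit. Mesenchymal markers had a median of 0.53, with 4 of 8 at that limit on the higher side. Fewer cells of a type and less RNA per cell cannot be told apart in whole tissue, here or in any comparison below. The part of these marker shifts in the members' values was not tested.

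Set against the mean log2 value of the mature OSN markers within each mouse, 5 of the 6 members had a higher mean ratio in the Kir2.1 mice and Nfasc a lower one, given as values with no test. The log2 ratio of L1cam to these markers was -1.73 ± 0.03 in controls, against -1.45 ± 0.14 with Kir2.1 (SD, n = 3 each), with no overlap. For Chl1 it was -6.44 ± 0.10 and -5.996 ± 0.17, and for Nrcam -3.76 ± 0.15 and -3.44 ± 0.14, also without overlap. The groups overlapped for Ncam2, at -2.20 ± 0.18 and -2.16 ± 0.26. They also overlapped for Ncam1 (0.92 ± 0.14 and 1.16 ± 0.10) and Nfasc (-2.95 ± 1.64 and -3.04 ± 0.88). All these ratios share the marker mean of a mouse, which was itself lower with Kir2.1. It was 13.20 to 13.31 in controls and 12.76 to 12.88 with Kir2.1, without overlap. The share of all genes that would separate in such a ratio was not computed, so the separations are not read as particular to these members.

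Against the immature OSN markers, 5 of the 6 members had a lower mean log2 ratio in the Kir2.1 mice, and the groups of Ncam1, Nrcam and Nfasc overlapped (differences of -0.18, -0.10 and -0.52), as did those of Chl1 (0.02). The log2 ratio of Ncam2 to them was -2.37 ± 0.13 in controls, against -2.74 ± 0.15 with Kir2.1, and that of L1cam was -1.90 ± 0.09 against -2.04 ± 0.04, both without overlap. Here too the share of all genes that would separate was not computed. Nqo1, the dorsal-zone enzyme, had adjusted p = 0.285 at a log2 fold change of -0.39 (SE 0.12), close to that of Ncam2. Acsm4, the other gene of the dorsal-zone marker list, was at -0.12 (SE 0.10, adjusted p = 0.748 by limma), with overlapping groups. The log2 ratio of Ncam2 to Nqo1 was -0.83 ± 0.32 in controls, against -0.84 ± 0.43 with Kir2.1.

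The second comparison asked the same of pups that had smelled PEA from birth. No member passed the test, against 31 of 17322 genes tested (0.179%). The members' median log2 fold change was -0.20, and that of all genes was -0.02. One member, Ncam2, had an unadjusted p under 0.05 on the lower side, which 6.04% of all genes did. Ncam2 was also the member whose groups did not overlap, being lower in the exposed mice, as were 3.86% of all genes tested. In the Kir2.1 experiment 0 of the 6 members were lower without overlap, against 9.04% of all genes there.

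Ncam2 had 1065, 1514, 1361 and 1826 normalized counts in the control mice. The exposed mice had 983, 926, 972 and 862, so that every exposed mouse was below every control mouse. The exposed group was also the tighter one, with an SD of 55.0 around 936 against 317 around 1441 (n = 4 each). The log2 fold change was -0.60 (SE 0.15, 95% interval -0.93 to -0.27), or 0.661 times the control level, and limma gave adjusted p = 0.131 over all genes tested. The exact two-sided permutation p was 0.0286, the smallest that 4 against 4 mice allow. With 1 of the 8 mice left out at a time, the fitted log2 change lay between -0.73 and -0.48 and the adjusted p between 0.0642 and 0.267.

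Ncam2 was also set against other genes of the same mouse. The exposed mice had a log2 ratio of Ncam2 to mature OSN markers of -1.299 ± 0.13, against -0.72 ± 0.26 in controls (SD, n = 4 each). For immature OSN markers it was -1.01 ± 0.15 against -0.36 ± 0.21 in controls, and for Nqo1 -1.34 ± 0.19 against -0.87 ± 0.12. The groups overlapped in none of these 3 ratios. The log2 ratio of Ncam1 to Ncam2 was 1.55, 1.80, 1.31 and 1.65 in controls, against 2.04, 2.40, 2.05 and 1.86 with PEA, again without overlap. These ratios share the Ncam2 values, which did not overlap on their own, and were not tested. The share of all genes that would separate in them was not computed. For every other member the groups overlapped in the ratios to mature and to immature OSN markers.

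**Figure D3:**
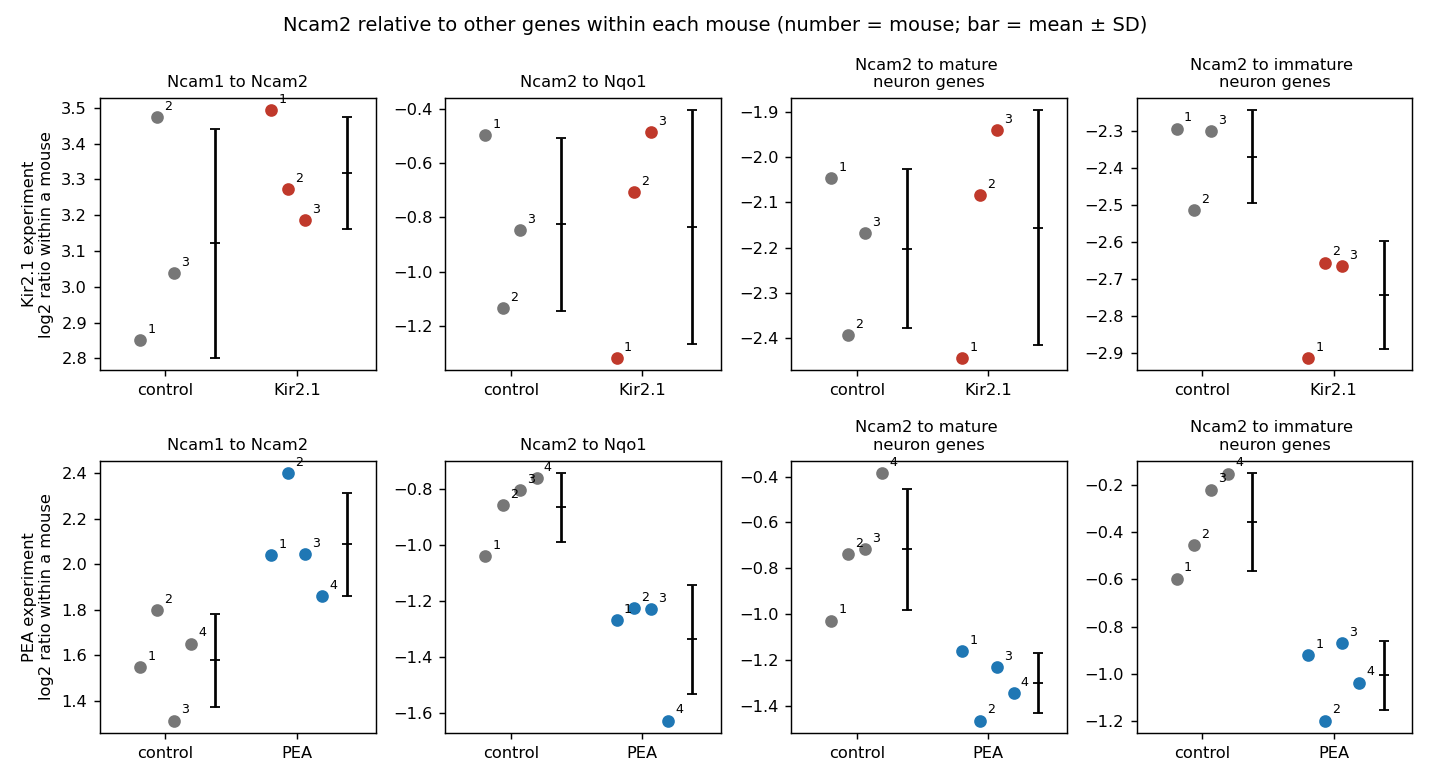
Log2 ratios of Ncam2 to Nqo1 and to the mean log2 value of mature and immature OSN markers, and of Ncam1 to Ncam2, within each mouse. Points are mice with their replicate numbers, bars give the mean ± SD, and the vertical axes do not start at 0. In the bottom row (PEA experiment) control and exposed mice are separate in all 4 panels, and in the top row (Kir2.1 experiment) only in the ratio to immature OSN markers. All 4 panels of a row share the same Ncam2 values.

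Several measures were unevenly spread over the mice or groups in these libraries. Omp was at 6087 to 7326 normalized counts in control and 7510 to 10082 in exposed mice (log2 fold change 0.31, adjusted p = 0.252 by limma). Its groups did not overlap, as for 5.46% of all genes on the higher side. Of the 12 mature OSN markers, 7 were lower and 5 higher in the exposed mice. Vomeronasal receptor genes were high in 3 of 4 control mice and 1 of 4 exposed mice. With their mean log2 value as a covariate, the log2 fold change of Ncam2 was -0.69 (adjusted p = 0.22). Xist, expressed from the inactive X of females, was at 12509 to 24975 normalized counts in 2 control and 3 exposed mice and at 8.14 to 14.4 in the others. With high or low Xist as a covariate, Ncam2 stood at -0.63 (adjusted p = 0.176). Mesenchymal markers had a median log2 fold change of -0.21, with 3 of 8 at an unadjusted p under 0.05 on the lower side, and their part in the Ncam2 values was not tested.

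Nrcam had 707, 818, 808 and 729 normalized counts in the control mice and 756, 642, 682 and 439 in the exposed mice. The exposed mice reached lower, but 1 of them lay within the control values. Its log2 change was -0.31 (SE 0.16, 95% interval -0.66 to 0.05, adjusted p = 0.394), and the exact two-sided permutation p was 0.0857. It was -0.14 without exposed mouse 4 and -0.41 without exposed mouse 1 (unadjusted p = 0.0316). Chl1 varied more, with 208, 217, 423 and 149 in the control mice and 216, 139, 113 and 246 in the exposed mice. Its log2 fold change of -0.44 was within its error (SE 0.33, 95% interval -1.17 to 0.29, adjusted p = 0.566), and it lay between -0.65 without control mouse 4 and -0.15 without control mouse 3, the mouse at 423.

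Ncam1, L1cam and Nfasc had group means closer together than the spread of their control mice. Ncam1 had 3114, 5266, 3381 and 5735 normalized counts in the control mice and 4050.1, 4897, 4016 and 3135 in the exposed mice. The control mice fell into a lower and a higher pair, and the exposed mice lay within their range. Between the groups the log2 fold change was -0.09 (SE 0.21, 95% interval -0.56 to 0.38, adjusted p = 0.882).

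L1cam, which lies on the X chromosome, showed the same 2 pairs of control mice, at 312 and 267 normalized counts and at 505 and 571. The exposed mice were at 433, 425.5, 369.8 and 396.5, between the pairs. Its log2 fold change was 0.04 (SE 0.22, 95% interval -0.46 to 0.54), and 0.03 with high or low Xist as a covariate. Nfasc had 121, 299, 225 and 344 in the control mice and 292, 263, 244 and 168 in the exposed mice, with a log2 fold change of 0.04 (SE 0.30, 95% interval -0.63 to 0.71). With median centring, the values of L1cam and Nfasc turned to -0.0070 and -0.0088. Control mouse 1, with the lowest Nfasc value here, had the highest vomeronasal receptor genes. In the Kir2.1 experiment the library with the highest of those had the highest Nfasc value. The part of vomeronasal tissue in the Nfasc values was not tested.

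How the members varied together among mice of 1 group was described by Pearson's r of their log2 values after the group means had been subtracted. The mice of an experiment share a kit and a normalization, which such an r also holds. Over all 14 mice, Ncam1 and L1cam had r = 0.84 (Spearman's rho 0.85), and r = 0.75 without the 2 mice farthest from the median of Ncam1. In the 8 mice of the PEA experiment, Ncam1, Ncam2, L1cam and Nfasc went together, with r of 0.68 to 0.94 between them. Their values were highest in control mice 2 and 4 for each of the 4 genes. Chl1 ran against Ncam1 there (r = -0.62), and in the 6 mice of the Kir2.1 experiment it did not (r = 0.17). Nfasc and Ncam1 had r = 0.87 in the PEA experiment and -0.27 in the Kir2.1 experiment, where control mouse 1 had the high Nfasc value.

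**Figure D4:**
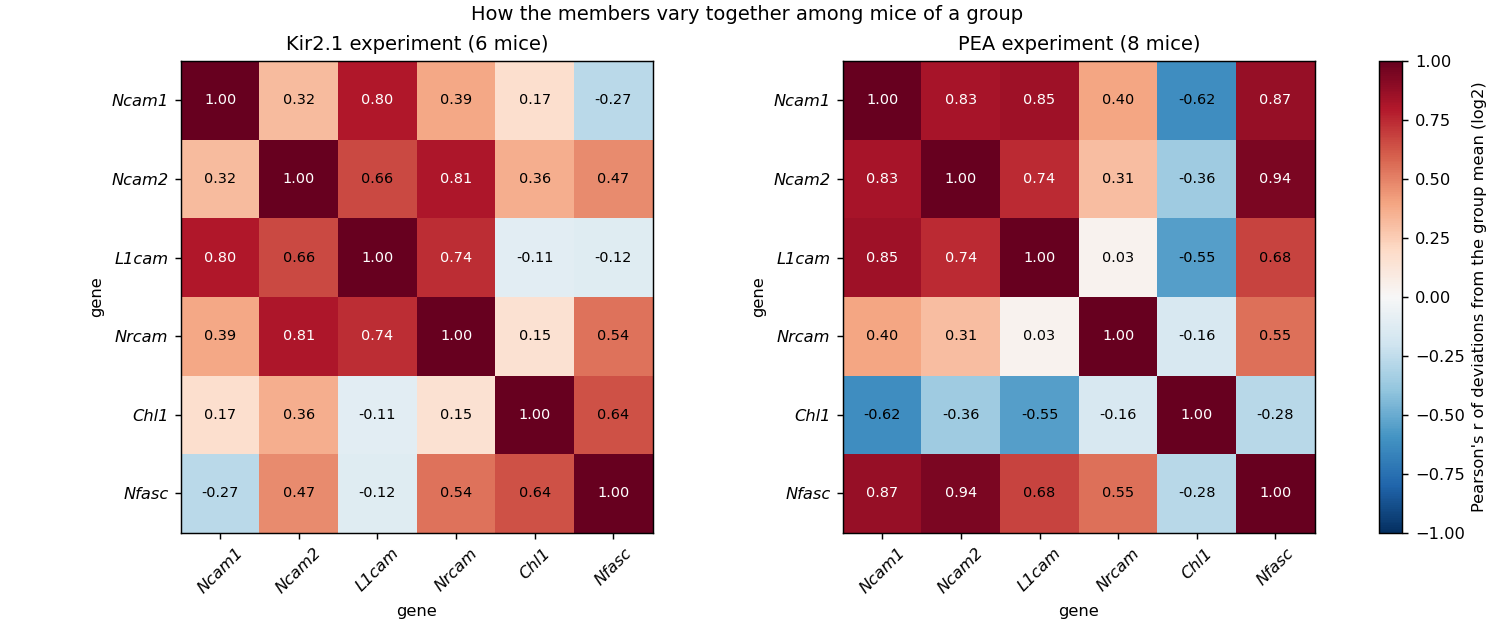
Pearson's r between members, computed on deviations of log2 values from the group mean, in the 6 mice of the Kir2.1 experiment and the 8 mice of the PEA experiment. Red is a positive and blue a negative r. Ncam1 and L1cam have r of 0.80 and 0.85 in the 2 experiments, while Chl1 is negative with the other 5 genes in the PEA experiment.

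The genes most like each member were sought among 11042 genes with a mean of at least 100 in both experiments. Those nearest to Ncam1 over the 14 mice were Cyfip2, a subunit of an actin-regulating complex (r = 0.98), Astn2, a neuronal membrane protein (0.98), and Myo5a, an actin motor (0.97). L1cam held rank 218 in this order. Nearest to L1cam were Gnao1, a G protein subunit that is also on the vomeronasal marker list (0.96), the transcription factor Foxk1 (0.95) and Mapk8ip2, a kinase scaffold (0.94). Hdgfl3 and Prkdc (both 0.92) and Usp3 (0.90) were nearest to Ncam2.

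The remaining members had likenesses that were less even between the experiments. Stab1, a scavenger receptor of endothelium and macrophages (0.92), Pak3 (0.86) and Dis3l2 (0.85) were nearest to Nrcam. For Chl1 they were Myo18a (0.90), Nudcd1 (0.88) and Gm20604 (0.87), with r of only -0.05, -0.14 and 0.34 in the Kir2.1 experiment. Nfasc was followed most closely by the odorant receptor gene Olfr24 (0.92), the endocytic adaptor Epn2 (0.87) and the DNA repair gene Rad54l (0.86). Olfr24 had r = 0.97 with Nfasc in the Kir2.1 experiment and 0.80 in the PEA experiment, while Epn2 had 0.99 and 0.08.

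The genes that act with these adhesion molecules were taken in lists by role. Of 19 adhesion partners, such as the contactin genes Cntn1 and Cntn2, integrins and matrix proteins, none passed the test in either experiment. Another contactin gene, Cntn4, which the study reports as lowered in both experiments, was not on this list. At an unadjusted p under 0.05, the Kir2.1 mice had 1 on the lower and 1 on the higher side, where 6.2% of all genes were lower and 4.93% higher, and the median log2 fold change was 0.16. In the exposed mice 4 of the 18 tested were lower and 1 was higher, where 6.04% of all genes were lower and 8.93% higher, with a median of -0.13. Cntn1, contactin 1, which binds NrCAM, neurofascin and L1CAM side by side on the axon, was the gene with the smallest p in both. It had 868 ± 24.9 normalized counts in control and 688 ± 85.4 in Kir2.1 mice (adjusted p = 0.295 at a log2 fold change of -0.34, SE 0.11), and 448 ± 35.1 in control and 346 ± 25.1 in exposed mice (adjusted p = 0.161 at a log2 fold change of -0.37, SE 0.11). The groups did not overlap in either experiment, as for 9.04% and 3.86% of all genes on the lower side in the Kir2.1 and the PEA experiment. The next by p were the matrix protein gene Vcan (0.75) and Cntnap2 (-0.27) in the Kir2.1 mice, and Itgav (-0.29) and Ptprz1 (-0.35) in the exposed mice.

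Of 15 cytoskeletal linkers, which included ankyrins, spectrins and other genes such as Ezr, Dlg3, Dcx and Ap2m1, none passed the test either. With Kir2.1, 0 of them had an unadjusted p under 0.05, and the median was -0.01. Their smallest p-values were those of the ankyrin genes Ank1 (log2 fold change -0.59) and Ank2 (-0.50) and of Dlg3 (0.14). In the exposed mice 1 was lower and 2 were higher at that limit, and the median was -0.14. Among these were Sptbn4, a beta spectrin (log2 fold change 0.63), and Msn, which links membrane proteins to actin (-0.26). Ank3, the gene of ankyrin-G, was added after its values had been seen, at log2 fold changes of -0.15 in the Kir2.1 mice and -0.17 in the exposed mice, with adjusted p = 0.674 and adjusted p = 0.713.

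Polysialic acid on NCAM is built by 2 sialyltransferases from sugar made and carried by the other 5 genes of the list. None of the 7 passed the test, and 0 had an unadjusted p under 0.05 with Kir2.1 (median 0.02). St8sia2, the sialyltransferase of the developing brain, stood at 422 ± 18.7 and 386 ± 46.3 normalized counts there (log2 fold change -0.13, adjusted p = 0.758), with Slc35a1 at 0.15 and Cmas at 0.06. In the exposed mice Slc35a1, which carries activated sialic acid into the Golgi, had the smallest p of all partner genes. It was at 588 ± 43.3 in control and 368 ± 64.3 in exposed mice, without overlap (adjusted p = 0.0866 at a log2 fold change of -0.69, SE 0.14). Of all genes tested there, 3.86% were lower without overlap. St8sia4 had a log2 fold change of -0.31 (adjusted p = 0.354) and Gne 0.30 (adjusted p = 0.474), and the list's median was -0.06.

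Among 13 signalling partners (FGF receptors, Fyn and other kinases, Gap43), none passed the test. Fgfr3, a receptor that NCAM and L1 can activate, was on the higher side without overlap in both experiments, as were 7.26% and 5.46% of all genes in the Kir2.1 and the PEA experiment, with fold changes of 0.61 on the log2 scale (SE 0.19, adjusted p = 0.296) in the Kir2.1 mice and 0.44 (SE 0.14, adjusted p = 0.181) in the exposed mice. Fgfr2 was at 0.59 in the Kir2.1 mice and -0.22 in the exposed mice. Prnp, the prion protein that binds NCAM, was at -0.23 in the Kir2.1 mice and the kinase gene Src at 0.52 in the exposed mice. The medians of the list were -0.0038 and -0.01.

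The 7 proteases and secretase subunits that cut L1 family and NCAM ectodomains had none at an unadjusted p under 0.05 and medians of -0.04 in the Kir2.1 mice and 0.06 in the exposed mice. The smallest p-values belonged to Ncstn (-0.11), Adam17 (0.12) and Aph1a (-0.15) in the first, and Adam10 (-0.19) and Ncstn (0.12) were among those with the smallest in the second. Of 26 other adhesion genes of the immunoglobulin superfamily, 1 passed the test in the Kir2.1 mice. Kirrel2, a glomerular sorting molecule that depends on activity, fell from 13787 ± 839 to 4127 ± 502 normalized counts (adjusted p = 0.00128 at a log2 fold change of -1.75, SE 0.10). In the exposed mice none of the 26 passed, with Mdga1 (2.09), Cadm4 (0.51) and Igsf9 (0.46) having the smallest p-values, and Kirrel2 was at 0.16. Mdga1 had 4.98 ± 2.26 and 30.0 ± 26.9 normalized counts, a low level.

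**Figure D5:**
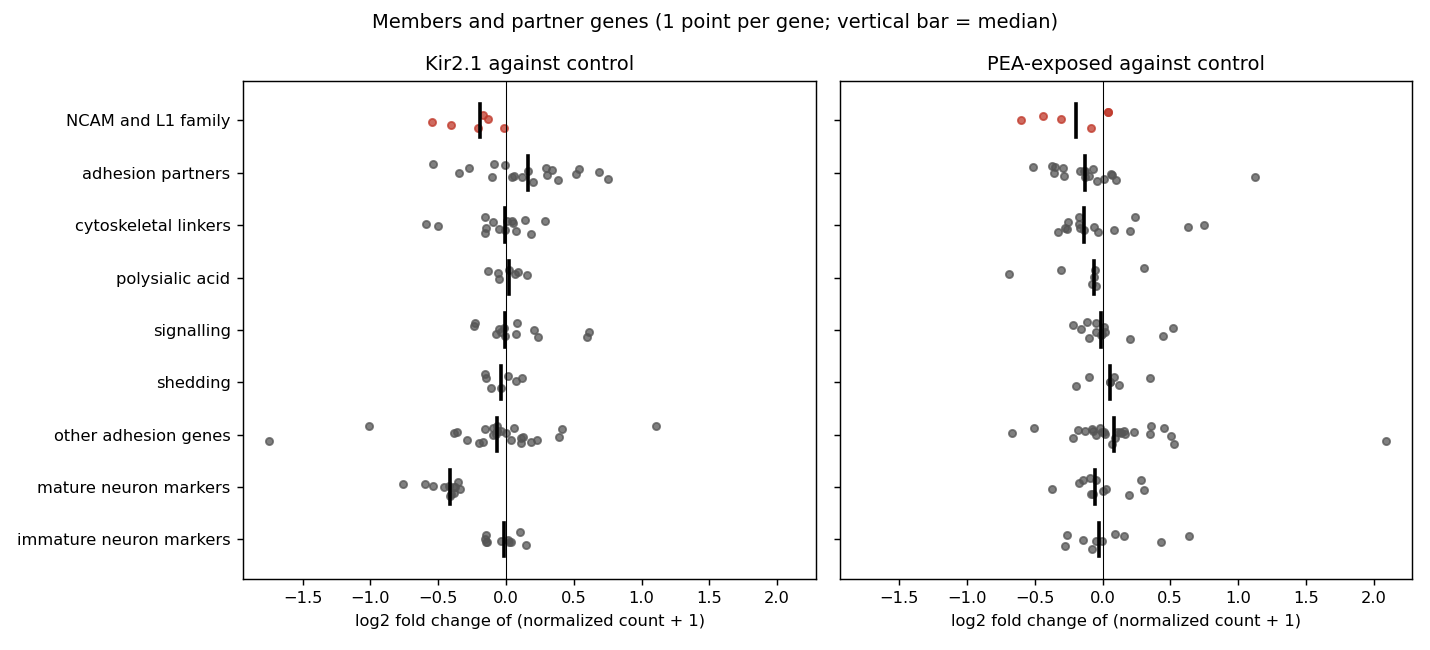
Log2 fold changes of the members (red) and of the genes of each partner and neuron marker list (grey), 1 point per gene, with a bar at each list's median. The members' medians are -0.19 and -0.20, the mature OSN markers stand at -0.41 in the Kir2.1 mice and at -0.06 in the exposed mice, and Kirrel2 is the point at -1.75.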

How the data were processed

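Per the labels and the study's methods, poly-A RNA was sequenced without strand information in the Kir2.1 experiment (short single-end reads), and total RNA without ribosomal RNA was sequenced with strand in the PEA experiment (longer single-end reads). Transcripts were quantified by the authors with Salmon 1.3.0, with the same strand setting named for both, on GRCm38 with an Ensembl annotation, then summed per gene and normalized with DESeq2 1.30.0, each experiment apart. The deposited values are this normalized signal per gene. Between 7.62% and 8.79% (Kir2.1) or 2.16% and 3.40% (PEA) of values above 0 were whole multiples, within 0.001, of the most frequent value under 3 in a mouse, so whole reads could not be recovered and no count test was run. The depth given rests on that value and is an estimate.

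Genes with a mean of at least 10 in an experiment were tested on log2(value + 1) with limma 3.58.1 in R 4.3.3 (mean-variance trend, Benjamini-Hochberg adjustment over all genes tested, threshold 0.05), which understates changes of low genes. The script was tested on simulated data. Single members were also tested by exact permutation over mice. Python 3.11.15 with scipy 1.17.1 was used for the rest. Each library came from 1 pup, and the Kir2.1 pups were compared with littermates according to the methods. For odor exposure the methods describe a vial in the home cage, and the sample records name no litter or cage. In the PEA experiment exposure therefore cannot be told apart from litter or cage. The part of litter or cage in the values, those of Ncam2 included, was not tested. The 6 genes and all lists were chosen with earlier results of these data known. All 6 members are named, with the genes past the threshold or with the 3 smallest p-values of each partner list, and the 3 genes most like each member. Kcnj2, Omp and Nqo1 are named as checks. Some genes that this rule names are not reported here. Of the marker lists, those for precursors, sustentacular cells, glia, blood and immune cells, the vomeronasal organ, the dorsal zone and muscle had 0, 0, 1, 3, 1, 1 and 0 genes at an unadjusted p under 0.05 in the Kir2.1 mice and 2, 2, 2, 0, 0, 0 and 0 in the exposed mice, and none of them passed the test.

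Alternatives were pseudocounts of 0.5 and 5, a mean of at least 50 or no filter, limma robust or without trend, median centring, quantile normalization, a replicate block, leaving out single mice and a threshold of 0.10. Covariates for vomeronasal receptor genes and for Xist were added after seeing the data. The Xist covariate marked each mouse as high or low and did not use the level.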

Additional observations from a re-analysis of the deposited data

How the results depend on the processing

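No member passed the test under any alternative, in either experiment. Of 216 member fold changes recomputed, 196 kept their direction and 20 did not, those being of Chl1 and Nfasc in the Kir2.1 mice and of Ncam1, L1cam and Nfasc in the exposed mice. Ncam2 kept its direction throughout, at -0.55 to -0.23 in the Kir2.1 mice and -0.73 to -0.48 in the exposed mice. With 1 mouse left out at a time, Chl1 lay between -0.11 and 0.058 and Nfasc between -1.12 and 0.35 in the Kir2.1 mice, and Ncam1 lay between -0.23 and 0.060, L1cam between -0.14 and 0.22 and Nfasc between -0.27 and 0.23 in the exposed mice. In the Kir2.1 experiment the vomeronasal covariate mostly sets control mouse 1 apart, so it nearly repeats leaving that mouse out. With vomeronasal receptor genes as a covariate, Chl1 was at 0.011 and Nfasc at 0.38 in the Kir2.1 mice, and L1cam at -0.048 and Nfasc at -0.074 in the exposed mice. There Nfasc was also at -0.014 with quantile normalization, -0.0088 with median centring and -0.031 with Xist as a covariate, and L1cam at -0.0070 with median centring.

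The number of all genes called in the Kir2.1 mice (70) was 20 by limma without trend, 22 with the vomeronasal covariate, 171 at a threshold of 0.10 and 23 to 44 with a mouse left out. In the exposed mice (31) it was 52 without a filter, 20 with the vomeronasal covariate, 128 at a threshold of 0.10 and 19 to 43 with a mouse left out. The causes of these different numbers were not tested. In the replicate block, which uses the mouse numbers of the labels, 9 genes were called in the Kir2.1 mice and 23 in the exposed mice, and no member. Mice of the same number had deviations from their group means that correlated at -0.06, -0.01 and 0.16 and at 0.13, -0.02, -0.05 and 0.10, and 2 of 6 and 4 of 8 mice correlated best with their own number, so the numbers were not taken as pairs. The mouse called PEA control 4 is replicate 4 by its title, while its library is numbered 5. With the block Ncam2 had adjusted p = 0.455 and adjusted p = 0.221.

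With 3 or 4 mice a group, Ncam2 did not pass the adjustment over all genes, and the 95% intervals of the other 5 members include 0 in both experiments. The lowest value of any member was 101 normalized counts. P-values set the difference between groups against the spread between pups of the same group, and not against a spread between litters or cages.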
